A study of Sus scrofa with 5 samples.

Results

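Nuclei of dorsal root ganglion neurons with the transcript of the mu opioid receptor gene OPRM1 were set against nuclei without it, among nuclei that carried the nociceptor sodium channel transcript SCN10A. The nuclei had at least 1 unique molecular identifier (UMI, a tag that marks 1 captured transcript) of SCN10A, under 3 UMIs of IL31RA and 3000 to 20000 UMIs in all, which left 650 of 2189 nuclei. Of these, 255 had 2 or more OPRM1 UMIs and are called OPRM1-positive here, and 251 had 0 and are called OPRM1-negative. The other 144 had exactly 1 and stood in neither group. OPRM1, SCN10A, IL31RA and the total were used to choose the nuclei, so their values are a description. The pigs, 5 male Landrace animals, form a single group with no treatment in the labels, and thoracic and lumbar ganglia were used. Nuclear RNA was counted from the 3' ends of transcripts, after isolation protocols that differed in detergent and in the enrichment of NeuN-stained neuronal nuclei. The table pools the pigs. Barcodes end in 6 different numbers, read as 6 libraries, and the labels used here tie no ending to a pig or protocol, so the table is 1 sample, nuclei are not replicates, and no test was run.

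The mu opioid receptor is the target of morphine and of the body's own enkephalins and beta-endorphin. It couples to inhibitory G proteins, which lower cyclic AMP, open G-protein-gated potassium channels and hold back calcium channels at the nerve terminal, and in nociceptors it dampens transmitter release in the spinal cord. In rodents it is best known from peptidergic nociceptors, which release substance P and related peptides, while the delta opioid receptor is described mainly in other sensory neurons. In the pig genome build Sscrofa11.1, OPRM1 lies on chromosome 1, from 12634125 to 12702295.

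OPRM1 had 1210 UMIs in the positive nuclei, 521 counts per 1000000 UMIs (CPM), with a highest value of 21 in a nucleus. Just inside the threshold were 76 nuclei with 2 UMIs, and 49 had 3 and 130 had 4 or more. SCN10A stood at 638 CPM in positive and 638 CPM in negative nuclei. The positive nuclei were deeper, with a median of 8300 UMIs and 3472 genes against 5955 UMIs and 2564 genes in negative nuclei. They made up 25.5% of the nuclei with 3000 to 5000 UMIs and 59.6% of those with 12000 to 20000.

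The libraries were not balanced between the groups. Library 1 gave 80 positive and 27 negative nuclei, library 3 gave 48 and 133, library 5 gave 67 and 64, library 6 gave 58 and 22, library 4 gave 2 and 5, and library 2 gave none. Library 3 thus held 18.8% of the positive and 53.0% of the negative nuclei, and no barcode sequence occurred in more than 1 library. Transcripts of the mitochondrial genome took 26.3% of the UMIs of positive nuclei and 25.7% of those of negative nuclei in library 3. The shares were 4.22% and 4.32% in library 1, 0.155% and 0.116% in library 5, and 0.0902% and 0.0349% in library 6. OPRM1 was also found in clusters low in SCN10A. Of 23 clusters of all nuclei, 10 had under 100 CPM of SCN10A, and their OPRM1 levels ran from 0 to 226 CPM. The highest was a cluster of 51 nuclei led by TRPM8, mostly from libraries 5 and 6. A cluster of 157 nuclei led by PVALB, 152 of them from library 1, had 101 CPM at a median depth of 5190 UMIs. Clusters mostly from library 3 lay apart from one another: one led by CALCR had 156 CPM at a median of 3801 UMIs, and one with NTRK2 among its leading genes had 0 CPM (upper limit 16.3) at 2964 UMIs. The part of free RNA in the share of positive nuclei was not tested.

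**Figure D1:**
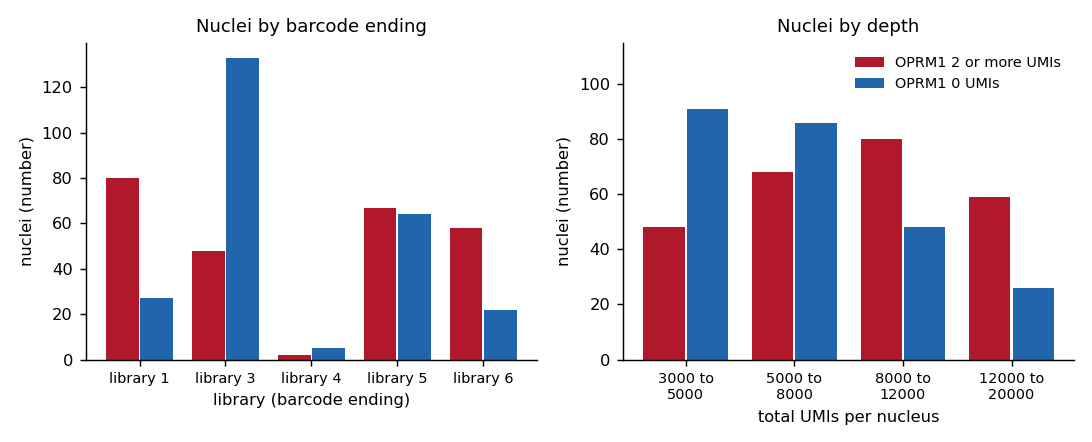
Number of nuclei with 2 or more OPRM1 UMIs (red, left) and with 0 OPRM1 UMIs (blue, right), by library on the left and by total UMIs per nucleus on the right. Library 3 holds 48 positive and 133 negative nuclei, and the bin from 12000 to 20000 UMIs holds 59 positive and 26 negative nuclei.

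Summed UMIs were compared as CPM for the 6705 genes with at least 100 UMIs over both groups, and a gene was counted as higher or lower past a 1.5-fold ratio. In positive nuclei 726 genes (10.8%) were higher and 389 (5.8%) were lower, and the log2 ratio had a median of 0.10 over all genes tested. Of the genes past the fold, 65.1% were thus higher. With mitochondrial genes left out of the totals, 522 genes were higher and 522 lower, with a median log2 ratio of -0.00084. Ratios taken within each library and depth bin and then combined gave 606 higher (9.04%) and 571 lower (8.52%) genes, a share of 51.5% higher, and centring on the median gene gave 50.2%. Summed counts and ratios within library and depth both placed 478 genes higher and 334 lower. Among the genes past the fold by summed counts, 442 were above 0 and 275 were below 0 in each of libraries 1, 3, 5 and 6. Of all 6293 genes with a value in each of these libraries, whatever their size of difference, 983 (15.6%) were above 0 and 869 (13.8%) below 0 in all 4. Counts of list members below are to be read beside the shares of all genes, 10.8% higher and 5.8% lower by summed counts. For counts within library and depth these shares are 9.04% and 8.52%. Intervals in brackets below are 95% intervals for counting error only and say nothing of the spread between pigs.

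Neuropeptides and the proteins that package them stood mostly on the positive side. Of 16 measured members, 9 were higher and 2 lower, with a median log2 ratio of 0.81 against 0.10 for all genes, and 7 and 3 past the fold within library and depth, with a median of 0.56. TAC1, the substance P precursor, reached 2179.6 CPM in positive and 825 CPM in negative nuclei, 2.64-fold higher (2.49 to 2.80). By library, TAC1 stood at 5034 CPM in positive and 1220.2 CPM in negative nuclei of library 1, at 2221 and 1242 CPM in library 3, at 396 and 226 CPM in library 5, and at 349 and 192 CPM in library 6. The positive nuclei were higher in each of these 4 libraries, but the libraries differed more than the groups did, and negative nuclei of libraries 1 and 3 lay above positive nuclei of libraries 5 and 6. GAL, the precursor of galanin, had 139 CPM in positive and 52.4 CPM in negative nuclei, and ADCYAP1, the precursor of the peptide PACAP, had 188 and 72.7 CPM.

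CARTPT, which encodes a precursor of peptides found in subsets of sensory neurons, had the highest ratio of the named genes: 137 UMIs (59.0 CPM) in positive and 7 UMIs (3.94 CPM) in negative nuclei, 14.96-fold higher (7.07 to 37.9). Of these, 106 UMIs in positive and 2 in negative nuclei came from library 1 and 17 and 2 from library 3, while library 5 held 5 and 2 and library 6 held 4 and 1. Its log2 ratio of 3.90 was 2.58 without library 1. NMB, which encodes neuromedin B, rested on library 1 as well: it reached 173 CPM in positive and 38.9 CPM in negative nuclei, a log2 ratio of 2.15 that was 0.69 without that library, and in library 6 the direction was the opposite, at 10.9 and 15.2 CPM. The granin genes SCG2 and CHGA, whose products help build secretory granules, were 4.19-fold (3.24 to 5.49) and 3.67-fold (2.25 to 6.27) higher, both in the same direction in all 4 libraries. The log2 ratio of SCG2 was 2.07, and 1.29 without library 1.

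Among thermal, chemical and mechanical channels, 7 of 16 were higher and 5 lower, with a median log2 ratio of 0.19. TRPM8, the cold and menthol channel, reached 160 CPM in positive and 28.7 CPM in negative nuclei, 5.58-fold higher (4.15 to 7.63). It had 93.0 CPM in positive and 21.3 CPM in negative nuclei of library 1, 49.9 and 25.5 CPM in library 3, 268 and 40.1 CPM in library 5, and 218 and 20.2 CPM in library 6. All 4 positive values lay above all 4 negative ones. TRPC5, a channel described in cold sensing in mice, was 4.19-fold higher (2.81 to 6.46), with a log2 ratio of 2.07 that was 1.46 without library 3 and 2.66 without library 5. The heat and capsaicin channel TRPV1 had few UMIs, 24.1 CPM in positive and 10.1 CPM in negative nuclei. On the other side stood ANO3, a protein of the anoctamin family, at 112 CPM in positive and 432 CPM in negative nuclei, and ASIC2, an acid-sensing channel subunit, at 137 and 524 CPM.

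Potassium and HCN channels, which set resting potential and spike shape, held 5 higher and 8 lower genes of 34, with a median of -0.21, and within library and depth 7 and 10. KCNQ5, a subunit of the M-type current that restrains repetitive firing, had 1451 CPM in positive and 377 CPM in negative nuclei, 3.85-fold higher (3.54 to 4.19). It stood at 1200.7 CPM in positive and 188 CPM in negative nuclei of library 1, at 2214 and 612 CPM in library 3, at 977 and 139 CPM in library 5, and at 1635 and 273 CPM in library 6. The lowest positive value was above the highest negative one, and without library 3, where both values were highest, the log2 ratio was 2.88 in place of 1.94. KCNN3, a small-conductance calcium-activated channel, was 2.27-fold higher. KCNIP1, a subunit that modifies A-type channels, was 2.79-fold lower (2.59 to 3.01), and KCNH6, of the ERG family, was 3.71-fold lower.

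Of 9 sodium channel genes and partners, none was higher and 2 were lower, with a median of -0.14. FGF12, an intracellular partner that modifies sodium channel inactivation, had 1192 CPM in positive and 3602 CPM in negative nuclei, 3.02-fold lower (2.89 to 3.16). FGF12 had 1013 CPM in positive and 2769 CPM in negative nuclei of library 1, 1055 and 3306 CPM in library 3, 1539.6 and 4209 CPM in library 5, and 1209.5 and 4944 CPM in library 6, again without overlap. SCN2A was 1.62-fold lower, with a log2 ratio of -0.69 that was -0.52 and short of the fold without library 1. The related FGF13 and FGF14 did not pass the fold, with log2 ratios of 0.49 and -0.38. Of 15 calcium channel genes, 2 were higher and 2 lower, against 10.8% and 5.8% of all genes, with a median of -0.11. RYR2, the release channel of internal calcium stores, was 2.25-fold higher (2.11 to 2.40), at 1614 CPM in positive and 718 CPM in negative nuclei. ITPR1, another store channel, and CACNA2D3 and CACNB3, auxiliary calcium channel subunits, had log2 ratios of 0.62, -0.82 and -0.61. ITPR1 did not pass the fold without library 1 (0.56) or library 3 (0.57), CACNA2D3 did not without library 3 (-0.56), and CACNB3 did not without library 3 (-0.39) or library 5 (-0.58).

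**Figure D2:**
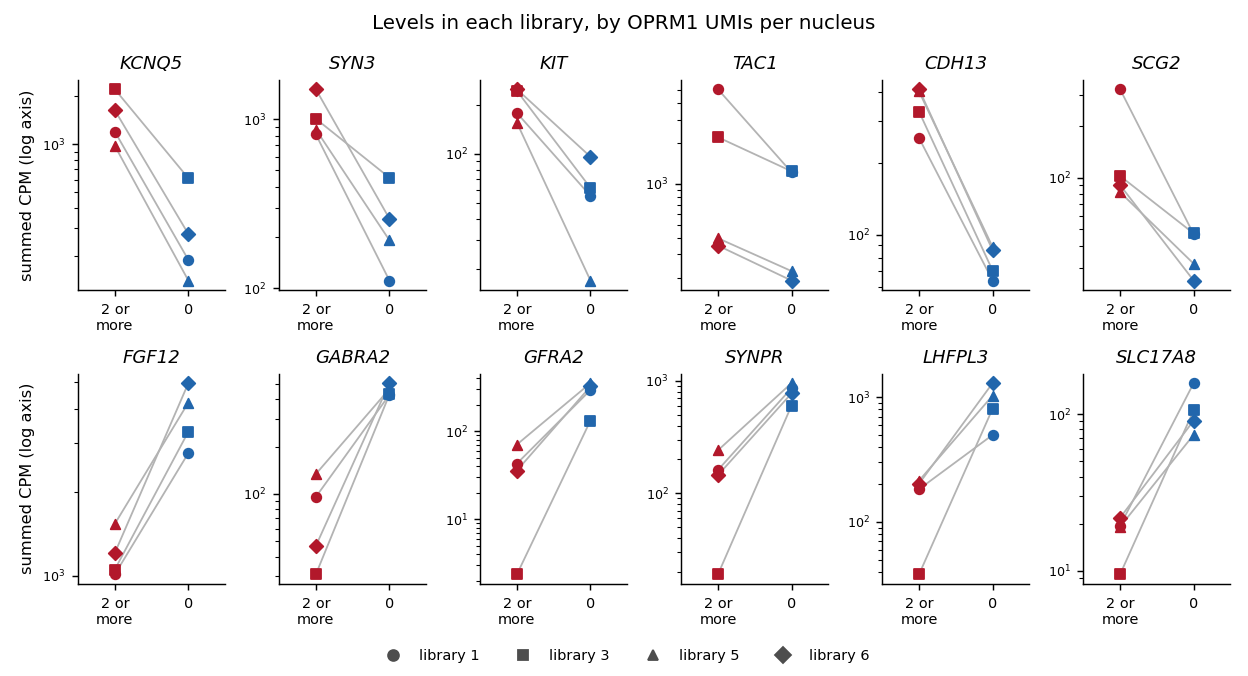
Summed CPM (log axis) of 12 genes in nuclei with 2 or more OPRM1 UMIs (red, left) and with 0 (blue, right), a point per library and a line joining the values of the same library. In every panel all 4 lines run the same way: down to the right for KCNQ5, SYN3, KIT, TAC1, CDH13 and SCG2, and up for the others.

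The genes of the receptor's own pathway passed the fold in both directions. Within library and depth 5 of them were higher and 4 lower, where 9.04% and 8.52% of all genes were. Of 33 measured genes for G protein subunits, G-protein-gated channels, adenylyl cyclases, receptor kinases, arrestins and RGS proteins, 3 were higher and 3 lower (9.09% each, against 10.8% and 5.8% of all genes), with a median log2 ratio of 0.0046 against 0.10 for all genes. KCNJ3, which encodes a G-protein-gated potassium channel subunit that the receptor can open, had 96.9 CPM in positive and 49.0 CPM in negative nuclei, 1.98-fold higher (1.54 to 2.56). KCNJ3 had 90.2 CPM in positive and 8.53 CPM in negative nuclei of library 1, 112 and 80.3 CPM in library 3, 78.4 and 16.9 CPM in library 5, and 109 and 55.6 CPM in library 6. The positive values were close to one another while the negative ones varied, the value of negative nuclei in library 3 passed the positive value in library 5, and without library 3 the log2 ratio was 2.09 in place of 0.98. RGS17, which speeds the shut-off of inhibitory G proteins, was 1.85-fold higher (1.44 to 2.40) by summed counts, with 68.9 CPM in positive and 69.7 CPM in negative nuclei of library 5. RGS4, of the same family, had 28.4 CPM in positive and 49.0 CPM in negative nuclei. GNAZ, an inhibitory G protein alpha subunit, had a log2 ratio of -0.95 by summed counts and 0.013 within library and depth: most of its UMIs were from library 3, at 142.5 CPM in positive and 116 CPM in negative nuclei there.

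Of the other opioid receptors, only OPRD1 had enough UMIs to be counted. OPRD1, the delta receptor, had 56 UMIs (24.1 CPM) in positive and 87 UMIs (49.0 CPM) in negative nuclei, 2.03-fold lower (1.44 to 2.90). It stood at 11.104 CPM in positive and 59.7 CPM in negative nuclei of library 1, at 14.3 and 29.2 CPM in library 3, at 34.4 and 67.5 CPM in library 5, and at 37.4 and 85.9 CPM in library 6. OPRD1 was lower in positive nuclei of each library, although positive nuclei of libraries 5 and 6 lay above negative nuclei of library 3. Some nuclei had under 2 UMIs of GFRA2 and LPAR3 together and under 2 of TRPM8. In these, OPRD1 had 17.6 CPM in positive and 15.6 CPM in negative nuclei, a log2 ratio of 0.17 on 29 and 13 UMIs. OPRK1, the kappa receptor, had 50 UMIs (21.5 CPM) in positive and 18 UMIs (10.1 CPM) in negative nuclei, a ratio of 2.12 (1.22 to 3.87), which is under the count minimum. In library 1 the direction of OPRK1 was the opposite, at 9.72 CPM in positive and 12.8 CPM in negative nuclei, on 7 and 3 UMIs. The nociceptin receptor OPRL1 had 8 and 5 UMIs, the nociceptin precursor PNOC 8 and 3, and the opioid peptide precursors PENK and PDYN 1 and 1 each, too few to compare. Of 6 other inhibitory receptors measured, 1 was higher and 1 lower, with a median of -0.34. The adenosine A1 receptor ADORA1 was 3.84-fold lower (2.70 to 5.53), and GRM8, a metabotropic glutamate receptor, was 1.71-fold higher (1.49 to 1.98), with a log2 ratio of 0.78 that was 1.40 without library 3. The GABA-B subunits GABBR1 and GABBR2, at log2 ratios of -0.39 and -0.41, did not pass the fold.

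Receptors for growth factors and inflammatory mediators differed strongly in single genes. Of 25 cytokine and growth factor receptors, 3 were higher and 7 lower, with a median of -0.01. KIT, the stem cell factor receptor, had 205 CPM in positive and 51.8 CPM in negative nuclei, 3.95-fold higher (3.15 to 4.99). By library KIT had 178 CPM in positive and 55.5 CPM in negative nuclei of library 1, 242 and 62.0 CPM in library 3, 155 and 16.9 CPM in library 5, and 248 and 96.1 CPM in library 6, with no overlap. GFRA2, the co-receptor for neurturin, had 39.6 CPM in positive and 233 CPM in negative nuclei, 5.89-fold lower (4.69 to 7.46). It stood at 43.0 CPM in positive and 294 CPM in negative nuclei of library 1, at 2.38 and 132 CPM in library 3, at 70.8 and 352.5 CPM in library 5, and at 35.8 and 323.5 CPM in library 6. GFRA2 was nearly missing from the 48 positive nuclei of library 3, and its highest positive value lay below its lowest negative one. OSMR and TGFBR1, receptors for oncostatin M and for transforming growth factor beta, were 2.51-fold and 2.43-fold lower. The choice of nuclei left out those with 3 or more UMIs of IL31RA, and with no limit on IL31RA the direction of OSMR was the opposite.

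Of 7 receptors for pronociceptive mediators, 4 were higher and 1 lower, with a median of 0.68. The prostacyclin receptor PTGIR was 2.66-fold (1.72 to 4.25), the prostaglandin E2 receptor PTGER4 2.38-fold (1.51 to 3.86) and the histamine receptor HRH1 2.13-fold (1.61 to 2.86) higher, on 94, 81 and 187 UMIs in positive and 27, 26 and 67 UMIs in negative nuclei. LPAR3, a lysophosphatidic acid receptor, was 6.25-fold lower (4.42 to 9.02). LPAR3 had 13.9 CPM in positive and 98.1 CPM in negative nuclei of library 1, 40.2 and 135 CPM in library 5, and 14.0 and 45.5 CPM in library 6. In library 3 it had 0 UMIs in positive and 86 in negative nuclei. NPFFR2, a receptor for neuropeptide FF, was 4.34-fold higher (2.89 to 6.74), and its log2 ratio of 2.12 was 3.04 without library 3.

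Genes of glutamate loading and release held 6 higher and 4 lower members of 25, with a median of 0.09, and 3 and 4 within library and depth. SYN3, a synapsin of synaptic vesicles, had 1051 CPM in positive and 316 CPM in negative nuclei, 3.33-fold higher (3.04 to 3.66), and its log2 ratio of 1.74 was 2.42 without library 3. SLC17A8, the vesicular glutamate transporter known from C-fibre touch neurons in mice, was 5.61-fold lower (3.99 to 8.04). VAMP2, a vesicle fusion protein, was 1.91-fold higher by summed counts, with a log2 ratio of 0.93 that was 0.51 without library 1 and 0.24 within library and depth, and CPLX1 was 1.86-fold lower. Glutamate and GABA receptor genes held 3 higher and 4 lower members of 17, with a median of -0.31. GABRA2, a subunit of the GABA-A receptor, had 78.4 CPM in positive and 436 CPM in negative nuclei, 5.56-fold lower (4.73 to 6.58). It had 95.8 CPM in positive and 427 CPM in negative nuclei of library 1, 30.9 and 428 CPM in library 3, 134 and 464 CPM in library 5, and 46.8 and 505.5 CPM in library 6, so that the negative nuclei lay close together in all 4 libraries. GABRA5, another subunit, was 5.14-fold lower (3.34 to 8.16), and GRIN2B, an NMDA receptor subunit, was 3.38-fold higher (2.15 to 5.50), with a log2 ratio of 1.76 that was 1.10 without library 3 and 2.64 without library 5. SYNPR, a synaptic vesicle protein, had 148 CPM in positive and 741 CPM in negative nuclei, 5.02-fold lower (4.45 to 5.67).

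Adhesion and axon guidance genes were split, with 21 higher and 16 lower members of 61 and a median of 0.14. CDH13, a cadherin held in the membrane by a lipid anchor, had 344 CPM in positive and 77.2 CPM in negative nuclei, 4.45-fold higher (3.71 to 5.38), and EPHB1, an ephrin receptor, was 4.16-fold higher (2.93 to 6.05). CDH13 had 255 CPM in positive and 64.0 CPM in negative nuclei of library 1, 330.1 and 70.5 CPM in library 3, 402 and 88.6 CPM in library 5, and 409.9 and 85.9 CPM in library 6. The 4 log2 ratios of CDH13 lay between 1.95 and 2.22. CNTN6 and CDH9, a contactin and a cadherin, were 4.18-fold lower (2.77 to 6.47 and 3.09 to 5.73), and the log2 ratio of CNTN6 was -2.06, and -3.05 without library 5.

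Transcription factors tied to sensory neuron identity held 9 higher and 8 lower members of 30, with a median of 0.06. BCL11A was 2.81-fold higher (2.17 to 3.68), with a log2 ratio of 1.49 that was 2.63 without library 3, and EBF2 was 2.35-fold higher (1.81 to 3.10). KLF5 was 3.64-fold lower (2.53 to 5.33), and ZNF521, which marks C-fibre touch neurons in rodents, was 2.48-fold lower (2.11 to 2.91). Cyclic nucleotide and kinase genes held 6 higher and 5 lower members of 34, with a median of 0.18. PRKAR2B, a regulatory subunit of the cyclic AMP-dependent kinase, and RGS8 were 2.54-fold (2.11 to 3.08) and 2.35-fold (1.72 to 3.26) higher. GNA14, a Gq-family alpha subunit, was 4.17-fold lower (3.56 to 4.92) and PDE4B, which breaks down cyclic AMP, 2.24-fold lower (2.00 to 2.50). Of 19 axonal cytoskeleton and pump genes, 2 were higher and 2 lower, against 10.8% and 5.8% of all genes, with a median of 0.08. GAP43, a growth cone protein, was 2.38-fold higher (2.13 to 2.66), and STMN4 1.80-fold, with a log2 ratio of 0.84 that was 0.36 without library 1. The plasma membrane calcium pumps ATP2B2 and ATP2B1 were 3.56-fold (2.96 to 4.30) and 1.72-fold (1.56 to 1.90) lower. JUN, the only injury and activity gene with enough UMIs, had 78.8 CPM in positive and 67.1 CPM in negative nuclei, a log2 ratio of 0.23 that did not pass the fold, but the direction was the opposite by library. It had 167 CPM in positive and 294 CPM in negative nuclei of library 1, 55.5 and 80.2 CPM in library 5, 49.9 and 55.6 CPM in library 6, and 0 UMIs on both sides of library 3. Its log2 ratio was -0.38 without library 3, and -0.64, lower past the fold, within library and depth.

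The remaining genes with the highest ratios were GNG8, a G protein gamma subunit, at 44.8 CPM in positive and 4.51 CPM in negative nuclei, ITGA11, an integrin, at 46.1 and 9.02 CPM, PIK3C2G, a lipid kinase, at 53.8 and 10.7 CPM, DGKK, a diacylglycerol kinase, at 127 and 26.5 CPM, and BVES, a cyclic AMP-binding membrane protein, at 451 and 109 CPM. KRT14, a keratin, TSPAN18, a tetraspanin, and CDA, a cytidine deaminase, had 61.6, 75.4 and 95.2 CPM in positive nuclei, against 13.5, 17.5 and 22.5 CPM in negative nuclei. GNG8 and KRT14 moved most with library 1: their log2 ratios of 3.31 and 2.19 were 2.31 and 1.36 without it. The remaining genes with the lowest ratios were LHCGR, the luteinizing hormone receptor, at 6.46 CPM in positive and 47.9 CPM in negative nuclei, TMC3, of the transmembrane channel-like family, at 39.6 and 286 CPM, LHFPL3, a relative of the hair cell protein LHFPL5, at 168 and 869 CPM, and ZFHX3, a homeobox factor, at 77.5 and 325 CPM. LYPD1, TMEM45B and EFEMP1 had 10.8, 14.2 and 33.2 CPM in positive nuclei, against 57.5, 74.96 and 146 CPM in negative nuclei. TMC3 and LYPD1 moved with library 5, with log2 ratios of -2.85 and -2.42 that were -3.54 and -3.13 without it.

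**Figure D3:**
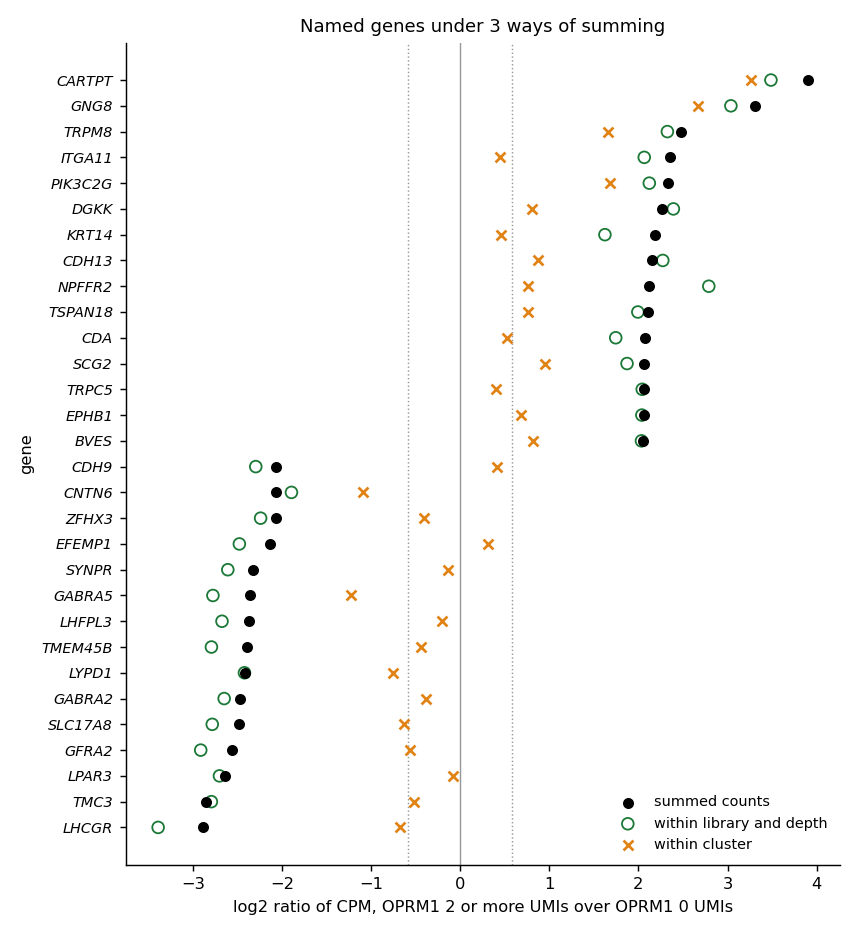
Log2 ratio of CPM in nuclei with 2 or more OPRM1 UMIs over nuclei with 0, for the 30 genes named by size, from summed counts (black), within library and depth (open green) and within cluster (orange crosses). Dotted lines mark 1.5-fold; the crosses lie closer to 0 than the other marks for all 30 genes.

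Mitochondrial transcripts moved with library 3. By summed counts 11 of 13 genes of the mitochondrial genome were lower in positive nuclei, with a median log2 ratio of -0.98, and within library and depth 0 of 13 passed the fold in either direction, with a median of 0.16. ATP6 had 8400 CPM in positive and 18354 CPM in negative nuclei by summed counts, and 38940.5 and 38253 CPM in library 3. COX2, ATP6 and ND4L, at log2 ratios of -1.11, -1.13 and -1.17 by summed counts, were at 0.48, 0.49 and 0.53 without that library, and ATP8, at -1.19, was at -0.41. In library 6, ATP6 had 85.7 CPM in positive and 20.2 CPM in negative nuclei, on 55 and 4 UMIs.

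Markers of other cells were present at low to moderate levels in both groups. The 8 satellite glia markers summed to 1564 CPM in positive and 1276 CPM in negative nuclei, the 9 Schwann cell markers to 1108 and 1047 CPM, and the 6 fibroblast markers to 229.6 and 157 CPM. The 5 lymphocyte markers summed to 81.8 CPM in positive and 43.4 CPM in negative nuclei, a log2 ratio of 0.92 (1.44 to 2.49-fold) with the positive nuclei higher in all 4 libraries, most of it SKAP1. The 5 mural cell markers summed to 26.3 and 15.2 CPM, a log2 ratio of 0.79. By library the satellite glia sum ran from 767 to 2889.9 CPM in positive and from 751 to 2611 CPM in negative nuclei, highest in library 1 in both. The markers FABP7 and KCNJ10 of satellite glia had 9 and 8 UMIs in positive and 6 and 4 in negative nuclei, and the macrophage marker CD68 had none. The 6 proprioceptor markers summed to 143 CPM in positive and 211 CPM in negative nuclei, and the 7 touch neuron markers to 304 and 369 CPM. The part of these levels in the gene ratios was not tested.

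The lists of neuron class markers differed between the groups by unlike amounts. Of the C-fibre peptidergic list, 5 markers summed to 2656 CPM in positive and 1029 CPM in negative nuclei, of which TAC1, given above, made up 2179.6 and 825 CPM. The 6 markers of TRPM8 neurons, TAC1 again among them, summed to 2552 CPM in positive and 1174 CPM in negative nuclei. Within library and depth, the log2 ratios were 2.33 for TRPM8, 0.54 for FOXP2, 0.12 for RXFP1 and -1.38 for CDH8. The remaining marker, PENK, had too few UMIs to compare. Of the list for MRGPRD neurons, 5 markers summed to 152 CPM in positive and 589 CPM in negative nuclei. The 7 markers of C-fibre touch neurons summed to 267 and 807 CPM, and GFRA2 is in both lists. Within library and depth, the log2 ratios were -2.91 for GFRA2, -2.70 for LPAR3, -1.66 for PLXNC1 and -0.28 for P2RX3. They were -2.78 for SLC17A8, -2.30 for CDH9, -1.49 for ZNF521 and -0.61 for TAFA4. LPAR5, CASQ2 and TH had too few UMIs to compare. The sums of the SST and OSMR list (7 markers, 566 CPM in positive and 632 CPM in negative nuclei) and of the A-fibre peptidergic list (3 markers, 1006 and 1093 CPM) had log2 ratios of -0.16 and -0.12. By library, the SST and OSMR sum was 1102 CPM in positive and 1207 CPM in negative nuclei of library 1. It was 271 and 546 CPM in library 3, 415 and 574 CPM in library 5, and 288 and 460 CPM in library 6. IL31RA, also of that list, was used to choose the nuclei and is not in the sum. With no limit on IL31RA the groups held 387 positive and 278 negative nuclei. The A-fibre sum went both ways by library. CALCA and MRGPRD themselves were not analysed here. Nuclei with 2 or more UMIs of GFRA2 and LPAR3 together made up 22 of 255 positive nuclei (8.63%, exact 95% interval 5.49 to 12.8%) and 102 of 251 negative nuclei (40.6%, 34.5 to 46.9%). After each nucleus was thinned to 3000 UMIs, these were 5 (1.96%) of the positive and 64 (25.5%) of the negative nuclei. Of the others, 45 positive and 5 negative nuclei had 2 or more UMIs of TRPM8, and after thinning 24 positive and 4 negative nuclei of all did. GFRA2, LPAR3 and TRPM8 were named from the contrast of these nuclei, so the direction of these shares was fixed by that choice. The intervals of the shares treat nuclei as independent and say nothing of the spread between libraries or pigs.

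The 650 SCN10A nuclei were also grouped by these markers and OPRM1 read in each group. TRPM8, GFRA2, LPAR3, KIT and SYN3 were named from the contrast of the same nuclei, so the direction of these differences was fixed by that choice and the levels are a description. OPRM1 had 671 CPM (601 to 746) in the 56 nuclei with TRPM8, 295 CPM (276 to 314) in 437 nuclei with neither, and 72.2 CPM (59.1 to 87.4) in the 157 nuclei with GFRA2 and LPAR3. The order was the same in libraries 1, 3, 5 and 6, although the levels were not: in the nuclei with GFRA2 and LPAR3 they were 140 CPM in library 1, 15.6 CPM in library 3, 88.1 CPM in library 5 and 57.9 CPM in library 6. Over clusters of all nuclei, the highest TRPM8 levels did not go with the highest OPRM1 levels. The cluster of 51 nuclei led by TRPM8 had 1281 CPM of TRPM8 and 226 CPM of OPRM1. The cluster of 72 nuclei led by CALCR had 827 and 156 CPM. A cluster of 43 nuclei led by CDH13, with 32 positive and 1 negative nuclei, had 425 CPM of TRPM8 and 608 CPM of OPRM1. Grouped by KIT, OPRM1 had 492 CPM in 146 nuclei with 2 or more UMIs and 176 CPM in 399 nuclei with 0, and grouped by SYN3 it had 378 CPM in 374 nuclei and 83.8 CPM in 157. Grouped by GAL the levels were closer, at 319 CPM in 93 nuclei and 248 CPM in 457, and in library 6 the order was the opposite, at 240 and 334 CPM. Grouped by PIEZO2, OPRM1 had 236 CPM in 312 nuclei with 2 or more UMIs and 290 CPM in 267 nuclei with 0. The median depths in the KIT groups were 7554 and 6197 UMIs, and in the SYN3 groups 6998.5 and 6519 UMIs.

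**Figure D4:**
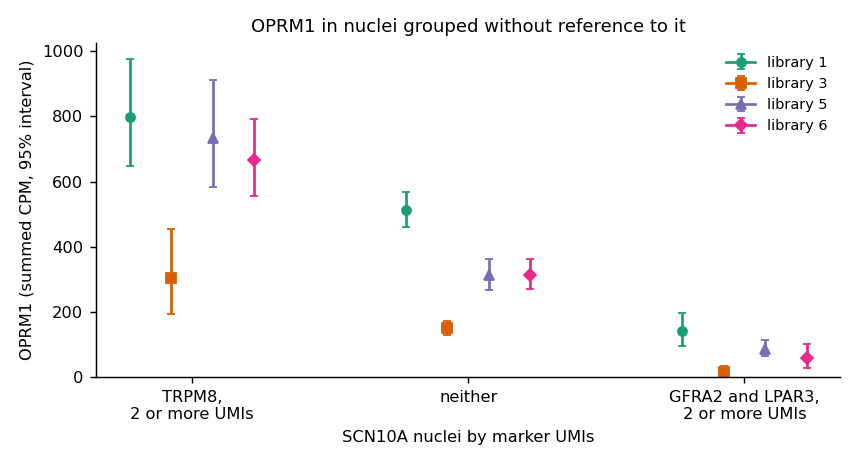
OPRM1 level (summed CPM with its exact 95% interval for counting error) in SCN10A nuclei grouped by UMIs of TRPM8 or of GFRA2 and LPAR3, a point per library. In each library the level is highest with TRPM8 and lowest with GFRA2 and LPAR3, and library 3 is lowest in each group.

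The ratios were smaller within classes of like nuclei. With ratios taken within 23 clusters of like nuclei, 135 of the 726 higher and 63 of the 389 lower genes still passed the fold in the same direction, and their medians were 0.32 over all 726 and -0.27 over all 389. These clusters were built on genes of the same nuclei, so differences between the groups that follow the clusters are removed with them. Within library and marker group, 220 and 166 of the genes still passed. In the 188 positive and 144 negative nuclei with neither set of markers, 370 and 185 did, counted without the minimum of 100 UMIs within these nuclei alone. Among the named genes that remained past the fold within clusters were CARTPT (3.26), GNG8 (2.67), PIK3C2G (1.68), TRPM8 (1.65), NMB (1.30), CHGA (1.06), SCG2 (0.95), KCNQ5 (0.88), CDH13 (0.87), BVES (0.81), RGS17 (0.78) and KIT (0.76), given as log2 ratios, and GABRA5 (-1.23), CNTN6 (-1.09) and TGFBR1 (-0.96) on the other side. TAC1 (0.32), SYN3 (0.38), RYR2 (0.22), KCNJ3 (-0.10), LPAR3 (-0.08), SYNPR (-0.13), FGF12 (-0.11) and OPRD1 (-0.43) did not pass it there.

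Among the nuclei with GFRA2 and LPAR3, 22 positive were set against 102 negative ones, whose libraries differed: library 3 gave 0 of the positive and 37 of the negative nuclei, and ATP6 stood at 1065 and 11889 CPM. Of 69 named genes past the fold in the whole groups, with at least 10 UMIs here and not used to define the nuclei, 65 had the same direction as in the whole groups and 4 the opposite one. These 4 were NMB, at a log2 ratio of -0.96 here, STMN4 at -1.20, RGS4 at 0.10 and CPLX1 at 0.04. These nuclei were part of the groups from which the genes were named, so that choice favoured the same direction. The same count over all genes was not made. FGF14, which did not pass the fold in the whole groups at -0.38, was at 0.71 here. FGF12 had 3891 CPM in positive and 5925 CPM in negative nuclei, GABRA2 had 369.7 and 724 CPM, and TMC3 had 235 and 490.2 CPM. KCNQ5 had 322 CPM in positive and 76.4 CPM in negative nuclei of that kind, SYN3 290.2 and 67.5 CPM, and TAC1 588 and 164 CPM.

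Along the number of OPRM1 UMIs, which the choice of nuclei used, 34 of the 78 named genes past the fold were in order over all 5 steps and 44 were out of order at a step or more. Among those in order, KCNQ5 had 377 CPM in nuclei with 0 OPRM1 UMIs, 778 CPM with 1, 941 CPM with 2, 1388 CPM with 3 and 1694 CPM with 4 or more. GFRA2 had 233, 157, 68.1, 37.0 and 28.1 CPM at the same steps, and FGF12 had 3602, 2537, 1695, 1499 and 873 CPM. Out of order were RYR2, with 718, 1329, 1690, 1913 and 1483 CPM, and GRM8, with 163, 268, 293, 386 and 238 CPM. In nuclei with exactly 1 UMI, just outside the threshold, 72 of the 78 genes had a level between those of the positive and negative nuclei; KIT had 51.8 CPM with 0, 95.9 CPM with 1 and 99.5 CPM with 2. The other 6 were ITGA11, GNAZ, ITPR1, PTGER4, RGS8 and STMN4. ITGA11 had 9.02 CPM with 0 and 7.22 CPM with 1. The 78 genes were taken for a difference between nuclei with 0 and with 2 or more OPRM1 UMIs. That choice favours both counts, of genes in order and of levels in between, and the same counts over all genes were not made. TRPM8 and CARTPT were concentrated at the top, with 240.1 and 98.8 CPM in nuclei with 4 or more OPRM1 UMIs, against 60.1 and 9.25 CPM with 3. Median depth differed along the steps too, at 5955, 5721.5, 6596, 8192 and 9558.5 UMIs, and its part in the trend was not tested.

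**Figure D5:**
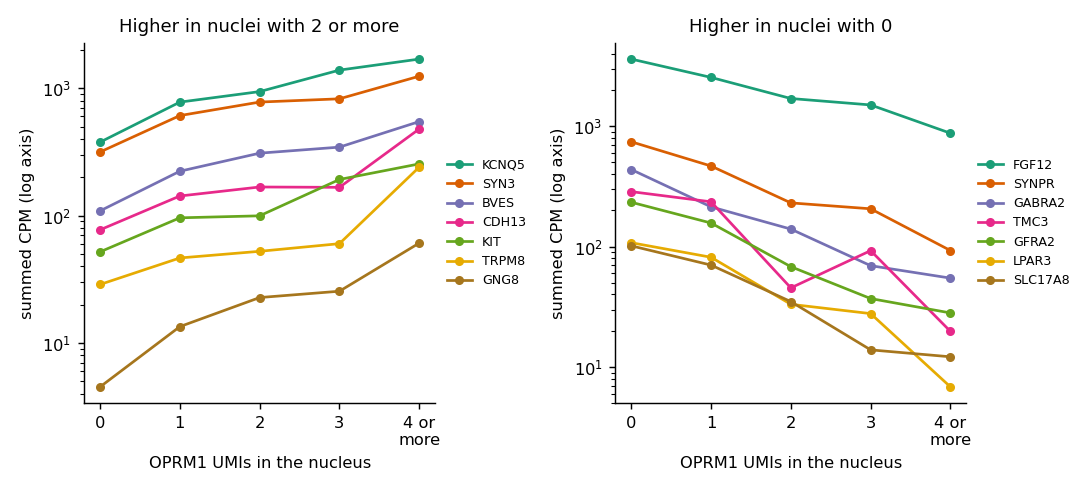
Summed CPM (log axis) of 14 genes in SCN10A nuclei by the number of OPRM1 UMIs, with 251 nuclei at 0, 144 at 1, 76 at 2, 49 at 3 and 130 at 4 or more. KCNQ5 is higher at each further step and FGF12 lower, while TMC3 is out of order at 3 UMIs (92.5 CPM, against 45.4 CPM at 2).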

How the data were processed

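The authors deposited 1 table of raw UMI counts, 30477 genes by 2189 nuclei and 17277376 UMIs in all, with no normalization. The submitters' processing notes list Cell Ranger 6.0.1, Seurat and the build Sscrofa11.1 and give none of them a role. An Ensembl ID stood in 14012 rows, and 773 of these could be given a symbol. Every nucleus had at least 501 UMIs; whether the authors filtered nuclei is not stated. No doublet caller was run and no nucleus was removed as a doublet; the limit of 20000 UMIs leaves out the deepest nuclei.

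The nuclei, gene lists and markers were chosen with earlier results of these data known. UMIs were summed over the nuclei of each group and divided by their total (CPM), with exact Poisson intervals and, for ratios, exact conditional binomial intervals, at 95%. Total depth was 2321544 UMIs in positive and 1774398 UMIs in negative nuclei. Where a group had 0 counts, 3 counts per group were used as a floor. Genes needed 100 UMIs over both groups. Combined ratios are Mantel-Haenszel ratios over library and depth bin (limits at 5000, 8000 and 12000 UMIs, 17 strata with both groups) or over Leiden clusters (2000 variable genes, 30 components, 15 neighbours, resolution 1.0, scanpy), in which 437 of 506 nuclei lay in clusters with both groups. Library ratios needed 10 nuclei per group and 10 UMIs, with 0.5 added. Named genes were the 15 highest and 15 lowest ratios with a symbol, UMIs in at least 10 nuclei of the higher group and the same direction in every such library and in the combined ratio, plus 4 members of each of 18 functional lists and all members of the list of opioid receptors and peptides. Genes named beyond these are markers of 16 cell type lists or leading genes of clusters. PIEZO2 was also used to group nuclei, and the further genes under other observations were chosen after their values were seen. Gene positions are those of RefSeq on Sscrofa11.1. The ratios were checked on simulated counts. One gene of the marker lists is not reported here.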

Additional observations from a re-analysis of the deposited data

How the results depend on the processing

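Under 28 alternatives, 4 of them chosen after seeing the data (shallower nuclei, deeper nuclei, library with marker group, and OPRM1 exactly 1 UMI), the counts of 726 higher and 389 lower genes moved by more than 1.5 times as follows. A minimum of 50 UMIs gave 1172 and 596, a minimum of 200 UMIs 408 and 239, and no minimum 4207 and 2276. Thinning gave 367 and 191, a 2-fold limit 200 and 146, clusters 236 and 151, library with marker group 270 higher, neither set of markers 156 lower, OPRM1 exactly 1 UMI 196 and 225, and 1500 up to 3000 UMIs 33 and 55. Leaving out a library gave 589 to 731 higher and 352 to 520 lower genes. Median-of-ratios scaling gave 523 and 519. Pairing by pig could not be made because the table pools the pigs; the pairing by library, ratios within library, gave 538 higher and 483 lower genes.

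Of 2024 values for 86 named genes (those on fewer than 10 UMIs left out), 41 changed sign in a gene past the fold by summed counts, given here as log2 ratios, and 61 genes had no such change; the cause was not tested. At 1500 up to 3000 UMIs (22 positive and 110 negative nuclei) these were TRPM8 (-0.96), RGS8 (-0.70), SYN3 (-0.30), TSPAN18 (-0.25), PRKAR2B (-0.16), CDH9 (0.21), CACNB3 (0.54), OSMR (0.62) and RGS4 (0.89). Above 20000 UMIs (40 and 12 nuclei) they were RGS17 (-0.14), ND4L (0.10), CACNB3 (0.24), RGS4 (0.25), TGFBR1 (0.30), ATP8 (1.44), COX2 (1.86) and ATP6 (2.13). Within clusters they were KCNJ3 (-0.10), ATP2B1 (0.065), ZNF521 (0.11), EFEMP1 (0.31) and CDH9 (0.41). With neither set of markers they were KCNJ3 (-0.079), OPRD1 (0.17) and TMEM45B (0.28). With OPRM1 exactly 1 UMI they were ITGA11 (-0.32), STMN4 (-0.15) and GNAZ (0.065). With no limit on IL31RA they were OSMR (0.34), CACNA2D3 (0.35) and RGS4 (0.39). Within library they were GNAZ (0.17) and ATP6 (0.032), within library and depth GNAZ (0.013), COX2 (0.0093), ATP6 (0.11) and ATP8 (0.20), and within library and marker group GNAZ (0.036). Leaving out a library in turn gave -1.20 to 0.48 for COX2, -1.21 to 0.49 for ATP6 and -1.25 to 0.53 for ND4L, the highest in each case without library 3.

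Intervals cover counting error only, since 1 pooled table gives no spread between pigs. A count of 0 OPRM1 UMIs does not show that a nucleus lacked the transcript, and the negative nuclei had the lower median depth.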

Other observations

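Further genes, chosen after their values were seen, extended the lists. The mechanosensitive channel gene PIEZO2 had 497 CPM in positive and 1199 CPM in negative nuclei, and the cation channel gene TRPM3 had 1453 and 696 CPM. RUNX1, a transcription factor of nonpeptidergic neurons in mice, had 181 CPM in positive and 369 CPM in negative nuclei. The growth factor receptor RET had 373 CPM in positive and 608 CPM in negative nuclei. The irritant channel gene TRPA1 had 102 CPM in positive and 58.0 CPM in negative nuclei.

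Of the genes past the fold both by summed counts and within clusters, 80 higher and 42 lower ones had the same direction in all 4 libraries. Outside the lists, again chosen after their values were seen, these held PCP4, a calmodulin regulator, at 78.4 CPM in positive and 149 CPM in negative nuclei, with a log2 ratio of -1.25 within clusters, and ASS1, an enzyme of arginine synthesis, at 38.3 and 118 CPM and -1.17. ANO5, an anoctamin, had 41.4 CPM in positive and 18.0 CPM in negative nuclei and 1.26 within clusters, and CCND2, a cyclin, had 89.6 and 32.1 CPM and 1.01.

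Outside the chosen nuclei, a cluster of 72 nuclei led by NMB, NPPB and SST, 71 of them from library 1, had the highest OPRM1 level of the 23 clusters, 1127 CPM (1058 to 1198); the limits on SCN10A, IL31RA and depth left 5 of its nuclei among the 650. Clusters led by LPAR3 and LHFPL3 and by TMC3 and GFRA2 had 11.13 CPM (4.08 to 24.2) and 53.5 CPM (42.4 to 66.7).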
